A study of Arabidopsis thaliana with 16 samples.

Results

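AT5G49840 is an Arabidopsis thaliana gene for a ClpX-type ATPase, the unfolding subunit of a Clp protease. It was read by 1 probe, number 225, of the 3439 in the deposited table. Within that table it was 1 of 691 genes with a private probe, one that the annotation gives to a single gene. It was chosen by its intensities in these same samples, which were known to be far higher in the ppi2 mutant than in the wild type, so its levels, ranks and fold changes are descriptions and carry no test. The array compared total RNA of 8 ppi2 samples with that of 8 wild-type (WT) samples, all of ecotype Wassilevskija. The ppi2 mutant lacks Toc159, a receptor in the outer envelope of chloroplasts that takes in precursor proteins, and its seedlings are known to be albino. The labels give no tissue, age, treatment or growth condition for either genotype, nor do they tell separate plants from repeats of 1 RNA. Consecutively numbered samples of a genotype resembled each other most and were averaged, which left 4 pairs per genotype. The spread behind each p-value is that between these pairs and may be technical.

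ClpX belongs to the AAA+ ATPases. Its subunits form a ring that grips a substrate protein, unfolds it with the energy of ATP and threads it into the chamber of the ClpP peptidase. In Arabidopsis the ClpX proteins are assigned to mitochondria, where they partner the peptidase CLPP2, while the Clp protease of chloroplasts uses ClpC and ClpD as its unfolding subunits and ClpS and ClpF as adaptors that hand it substrates. The other ClpX genes, AT5G53350 (CLPX) and AT1G33360, had no private probe, nor did CLPP2. How much related transcripts add to the signal of the AT5G49840 probe was not tested.

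Among the samples, WT 5 to 8 stood apart from the rest. The median deposited intensity over all probes, on a scale that ended at 100, was 0.168 to 0.269 in the 8 ppi2 samples, 0.198 to 0.212 in WT 1 to 4 and 0.0976 to 0.124 in WT 5 to 8. The ppi2 pair means correlated across probes at 0.761 to 0.806 with those of WT 1 to 4. With those of WT 5 to 8 they correlated at 0.625 to 0.667. The pair means of WT 1 to 4 correlated at 0.759 to 0.812 with those of WT 5 to 8, about as closely as with ppi2. These values are descriptions only, since probes are no replicates. The labels name no batch. Differences from WT are therefore also given without WT pairs 1 and 2 and without WT pairs 3 and 4, which are the averages of WT 1 to 4 and WT 5 to 8. Isoforms typical of roots and other non-green tissue, which could mark a difference in tissue, had 0 measured genes of 7 listed.

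The AT5G49840 probe was bright in every ppi2 sample and near or below the brightness of a typical probe in every WT sample. The deposited intensity had a lowest value of 1.54, a median of 2.57 and a highest value of 3.18 in ppi2. In WT the lowest value was 0.0167, the median 0.107 and the highest 0.231. No sample was listed at 0. The genotypes did not overlap, and the dimmest ppi2 sample was 6.65-fold above the brightest WT sample. Relative to the median probe of the same sample, the signal was 9.17 to 13.0 times that median in ppi2 and 0.156 to 1.16 times in WT. Only WT 1 and WT 2, at 1.15 and 1.16 times, exceeded their own sample's median.

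**Figure D1:**
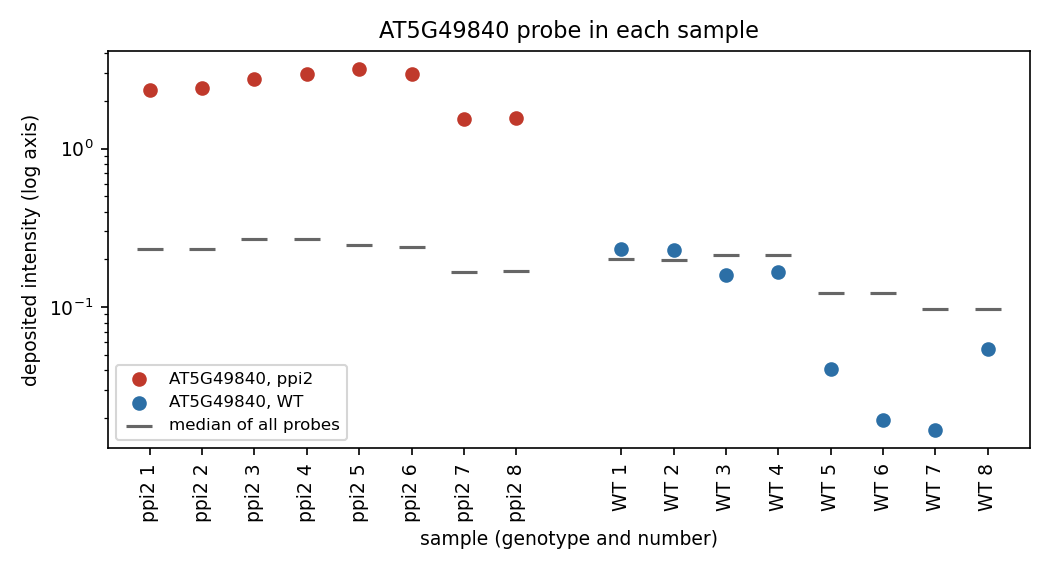
Deposited intensity of the AT5G49840 probe (log axis) in each ppi2 sample (red) and each WT sample (blue), with the median of all probes of that sample as a grey bar. The 8 ppi2 samples lie between 1.54 and 3.18, all above the 8 WT samples, which lie between 0.0167 and 0.231, and WT 5 to 8 are the dimmest.

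Ranks, which do not depend on how a sample was scaled, also separated the genotypes. They place the signal of the probe within a sample and do not compare amounts of different transcripts. Counted from the brightest of the 3439 probes, AT5G49840 stood at place 150 in the highest ppi2 sample, at a median place of 199.5 and at place 270 in the lowest. In WT it stood at place 1528 at best, at a median of 2190 and at 2832 at worst. In other terms, 92.1% to 95.6% of all probes were dimmer than AT5G49840 in ppi2, against 17.7% to 55.6% in WT. Among the 691 genes it was between the 29th and the 55th brightest in ppi2 and between the 288th and the 562nd in WT. The mean rank was 2005 places better in ppi2, a gain that 9 probes and 3 of the 691 genes exceeded.

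**Figure D2:**
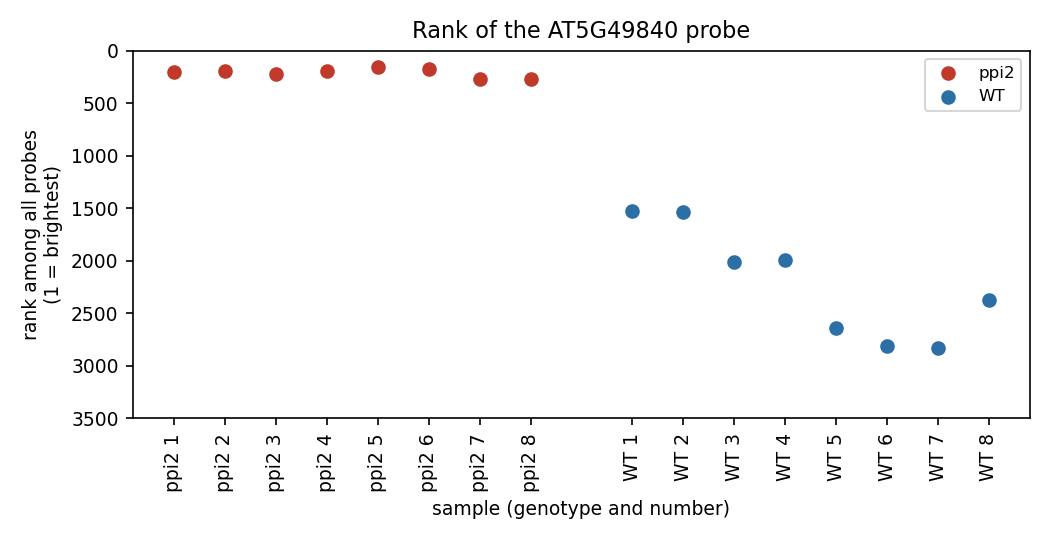
Rank of the AT5G49840 probe among all 3439 probes in each ppi2 sample (red) and each WT sample (blue), with 1 for the brightest at the top of the axis. The ppi2 samples hold places 150 to 270, and the WT samples are spread from 1528 to 2832.

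Few bright probes of the mutant were this dim in WT. In all 8 ppi2 samples 180 probes held place 270 or better, 34 of them the private probe of a gene. The best WT place of these 180 probes had a median of 134.5, so most of them were bright in WT too. Of the 180, 2 probes never did better than place 1528 in WT, namely AT5G49840 and probe 3469, which has no listed gene and is named after its values were seen. Both limits were set by the ranks of AT5G49840 itself, so this count describes its position and tests nothing.

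To compare the genotypes on 1 scale, intensities were quantile-normalized, which gives all samples the same distribution, and values at or below a floor of 0.0338 (-4.89 on the log2 scale) were set to it. The normalized log2 level of AT5G49840 averaged 0.97 ± 0.29 in ppi2 and -3.37 ± 1.12 in WT (SD over 4 pairs each). These means correspond to intensities of 1.95 in ppi2 and 0.0966 in WT, a difference of 4.34 ± 0.58 on the log2 scale (SE over pairs) or 20.2-fold. No ppi2 sample and 2 WT samples, WT 6 and WT 7, were at the floor, so the WT mean is partly set by it. Without normalization or floor the fold was 31.7, and relative to the sample medians it was 21.2. Cyclic loess gave 12.2-fold, and raising the floor to the 25th percentile gave 13.1-fold. Over all probes the median difference was 0. Every ppi2 pair lay above every WT pair, as was the case for 16.5% of all probes and 18.1% of the 691 genes. By size of increase AT5G49840 was 10th of all probes and 4th of the 691 genes, next to AT1G06510 above it (4.57 on the log2 scale) and the chromatin remodeling gene chr31 below it (4.33).

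**Figure D3:**
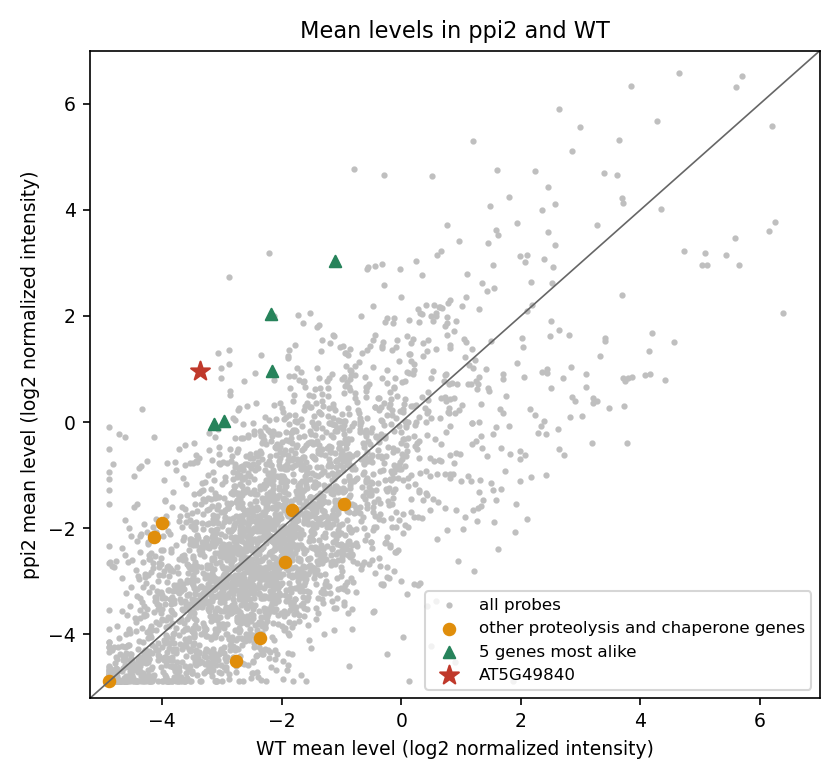
Mean normalized log2 intensity in ppi2 (vertical) and in WT (horizontal) for each probe (grey), with AT5G49840 as a red star, the 8 other measured proteolysis and chaperone genes in orange and the 5 genes with the most similar profile in green. The diagonal marks equal levels, and AT5G49840 stands far above it at 0.97 in ppi2 and -3.37 in WT.

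Within ppi2 the gene varied little. The normalized log2 levels of ppi2 pairs 1 to 4 were 1.01, 0.94, 1.30 and 0.61. Pair 3 was highest and pair 4 lowest, with a range of 0.70. The 2 samples of a ppi2 pair differed by 0.02 to 0.21 on this scale, so pairs 1 and 2, which were 0.07 apart, did not differ beyond that spread. The SD over ppi2 pairs, 0.29, was close to the median of 0.27 over all probes.

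Within WT the gene varied much more. The levels of WT pairs 1 to 4 were -2.11, -2.77, -4.48 and -4.13, a range of 2.37. WT pairs 1 and 2 were repeated closely by their 2 samples, whose deposited values differed 1.01-fold and 1.04-fold. In WT pairs 3 and 4 they differed 2.11-fold and 3.25-fold, or by 0.82 and 1.51 on the normalized log2 scale, where the median probe of these pairs differed by 0.35 and 0.27. The order of WT pairs 3 and 4 is therefore within the spread between their own samples. The SD over WT pairs was 1.12, against a median of 0.63 over all probes.

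AT5G49840 was thus among the genes whose WT level differed between the samples that stood apart. The mean of WT pairs 1 and 2 was 1.87 above that of WT pairs 3 and 4 on the log2 scale, or 3.66-fold. The median of all probes for this difference was -0.05, with quartiles of -0.71 and 0.54, and 6.08% of the probes had a larger one. The rise in ppi2 was 38.6-fold without WT pairs 1 and 2, and 10.6-fold without WT pairs 3 and 4. The WT samples at the floor, WT 6 and WT 7, belong to WT pairs 3 and 4. The 38.6-fold and 3.66-fold values are therefore partly set by the floor, and the 10.6-fold value is not. Leaving out 1 pair at a time gave 15.6-fold to 27.1-fold, both ends from WT pairs. What sets WT 5 to 8 apart was not tested.

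Of the Clp system, 24 genes were listed, and besides AT5G49840 there were 2 with a private probe, both adaptors of the chloroplast protease. A further 2 listed genes appeared only on probes shared with other genes and are not reported. AT1G68660, listed as CLPS1, which delivers substrates to ClpC, rose. Its deposited intensity had a lowest value of 0.213, a median of 0.335 and a highest value of 0.398 in ppi2, against 0.0182, 0.0556 and 0.112 in WT. No ppi2 sample was as low as any WT sample on this scale. By rank the samples did overlap, since AT1G68660 held place 1851 in ppi2 6 and place 1535 in WT 8. Its normalized log2 level was -1.91 ± 0.27 in ppi2 and -4.00 ± 0.90 in WT (SD, 4 pairs each), a difference of 2.09 ± 0.45 (SE) or 4.26-fold, with a limma adjusted p = 0.0146 over all 3439 probes. The test called 28.6% of all probes and 28.1% of the 691 genes, so a call is common on this array. With 2 WT samples at the floor the fold moved with it, to 2.05 when the floor was raised to the 25th percentile, and it was 2.87 without WT pairs 1 and 2 and 6.31 without WT pairs 3 and 4.

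AT2G03390, listed as CLPF, an adaptor that acts with ClpS, did not pass the test. Its deposited intensity ran from 0.147 to 0.223 in ppi2, with a median of 0.188, against 0.109 to 0.368 in WT, with a median of 0.185. The genotypes overlapped. Its difference was -0.69 ± 0.26 on the normalized log2 scale (95% interval -1.32 to -0.06, limma adjusted p = 0.0965). Without WT pair 2 the difference was -0.88 (limma adjusted p = 0.0301), and without WT pairs 1 and 2 it was -1.10 (0.00722). Without WT pairs 3 and 4 it was -0.28 (limma adjusted p = 0.278), and in the values as deposited it was -0.05.

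A list by locus held 37 other proteases and processing peptidases of chloroplasts, mitochondria and peroxisomes, but not SPPA, a thylakoid peptidase found below by name. Of the 37, 1 was measured on its own. This was AT3G02450, listed as FTSHI3, a relative of the FtsH membrane proteases that lacks their zinc-binding site. Its normalized log2 level was -4.50 ± 0.33 in ppi2, with 2 of 8 samples at the floor, and -2.77 ± 1.33 in WT, with 1 at the floor (SD, 4 pairs each). The difference of -1.73 ± 0.65 (95% interval -3.29 to -0.17) did not pass the test (limma adjusted p = 0.0945). WT pair 3, at -1.26, and WT pair 4, at -2.25, were its highest values, and WT pair 2, at -4.40, lay among the ppi2 pairs. It passed when dim probes were left out of the test (limma adjusted p = 0.0385), with 16 samples blocked by pair at random (0.0162), with 16 samples counted singly (0.00564), without WT pair 2 (0.0174) and, at -2.74, without WT pairs 1 and 2 (0.00491). It shrank to -0.72 without WT pairs 3 and 4 (limma adjusted p = 0.283) and to -0.65 under the higher floor (0.315).

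**Figure D4:**
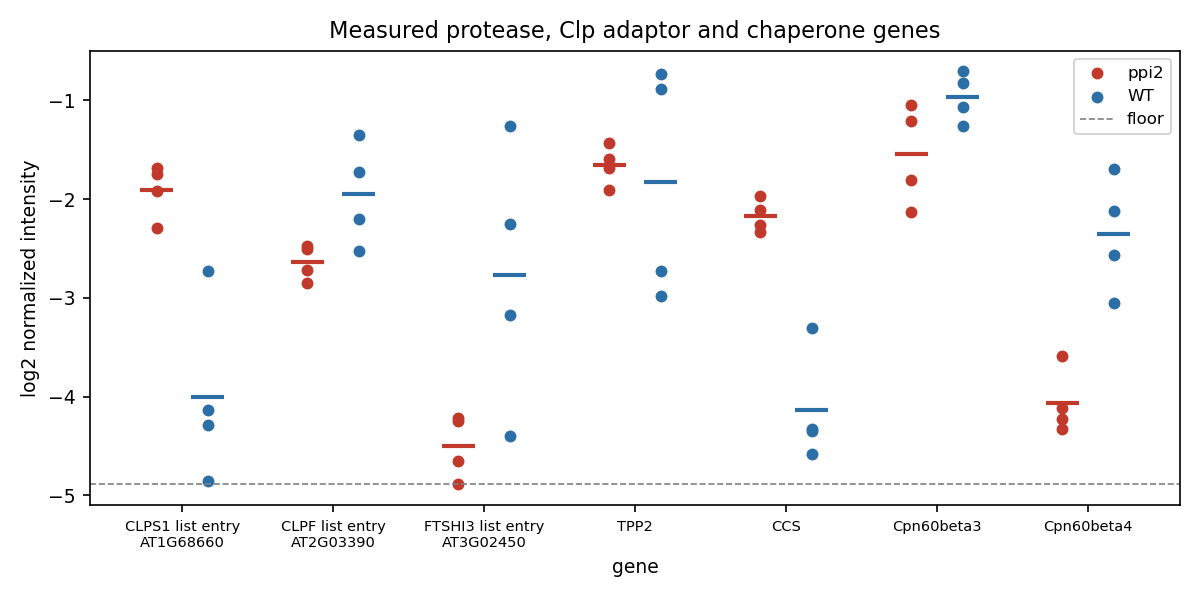
Normalized log2 intensity of the ppi2 pairs (red) and WT pairs (blue) of 7 measured genes for proteases, Clp adaptors and chaperones, with the mean of each genotype as a bar and the floor of -4.89 as a dashed line. AT1G68660 and CCS lie higher and Cpn60beta4 lower in every ppi2 pair than in any WT pair, and the other 4 overlap. Of the 691 genes, 18.1% lie higher and 13.6% lower in this way.

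Searching the gene names for protease, proteinase or peptidase gave 2 more genes, and neither passed the test. TPP2 (AT4G20850), the cytosolic tripeptidyl peptidase II that trims peptides after the proteasome, was at -1.66 ± 0.20 in ppi2 and -1.83 ± 1.19 in WT (SD, 4 pairs each). Its difference was 0.17 ± 0.57 (95% interval -1.19 to 1.54, limma adjusted p = 0.899). The WT pairs fell on both sides of ppi2, with pairs 1 and 2 at -2.73 and -2.98 and pairs 3 and 4 at -0.73 and -0.88, so that TPP2 was 1.20 higher in ppi2 without WT pairs 3 and 4 (limma adjusted p = 0.00843) and differed by -0.85 without WT pairs 1 and 2 (0.011). In the deposited values without normalization it was higher (limma adjusted p = 0.0258). SPPA (AT1G73990), a signal peptide peptidase of thylakoids, was at the floor in all 16 samples, so no difference could be measured.

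Of 3 genes with a chaperone name, 1 rose, 1 fell and the other missed the threshold. The gene that rose, CCS (AT1G12520), is a copper chaperone, which hands metal to superoxide dismutase and folds no proteins. It was at -2.17 ± 0.16 in ppi2 and -4.14 ± 0.57 in WT, with 3 WT samples at the floor (SD, 4 pairs each). The difference was 1.97 ± 0.28 (limma adjusted p = 0.00318), or 3.93-fold, 1.86-fold under the higher floor, 3.16-fold without WT pairs 1 and 2 and 4.89-fold without WT pairs 3 and 4. In CCS every ppi2 pair lay above every WT pair, as in 18.1% of the 691 genes. Cpn60beta4 (AT1G26230) is a subunit of the chloroplast chaperonin, the chamber in which imported proteins fold. It fell to -4.07 ± 0.33 in ppi2, against -2.36 ± 0.58 in WT, a difference of -1.71 ± 0.32 (limma adjusted p = 0.00926), or 3.27-fold lower. Every ppi2 pair lay below every WT pair, as in 13.6% of the 691 genes. With a floor at the 25th percentile Cpn60beta4 was 1.62-fold lower and did not pass (limma adjusted p = 0.106). It differed by -2.16 without WT pairs 1 and 2 and by -1.26 without WT pairs 3 and 4. Its relative Cpn60beta3 (AT5G56500) was at -1.55 ± 0.51 in ppi2 and -0.96 ± 0.25 in WT, a difference of -0.59 ± 0.27 (95% interval -1.23 to 0.06, limma adjusted p = 0.155) that turned to 0.31 in the values as deposited. Without WT pairs 1 and 2 it was -0.78, and without WT pairs 3 and 4 it was -0.39.

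In total, 8 genes of these lists were measured besides AT5G49840. Of these 2 rose, 1 fell and 5 did not pass, where 15.9% of the 691 genes rose and 12.2% fell. The median difference of the 8 was -0.29, against 0 for the 691 genes. None of the listed mitochondrial chaperones and stress genes had a probe of its own. No measured gene name held the words for AAA ATPases, mitochondria, ubiquitin or the proteasome. Only symbols and synonyms were searched, and for many genes these hold no more than a locus code. The search for AAA ATPases missed AT5G49840 itself, so finding 0 genes does not show that such genes were not measured. No other listed gene with a private probe thus stood for the mitochondria, to which ClpX is assigned. Whether unlisted measured genes act there was not examined. Among the 10 genes on each side of AT5G49840 on its chromosome, 1 was measured. It was AT5G49800, 4 genes away, with -1.60 ± 0.30 in ppi2 and -1.62 ± 0.73 in WT (SD, 4 pairs each) and a difference of 0.02 ± 0.37 (95% interval -0.87 to 0.91, limma adjusted p = 1). Without normalization the difference was 0.85 (limma adjusted p = 0.0909), and in the normalized values it was -0.46 without WT pairs 1 and 2 (0.278) and 0.50 without WT pairs 3 and 4 (0.339).

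The genes most like AT5G49840 were sought among 474 of the 691 that had no more samples at the floor than AT5G49840 had. Each profile over the 8 pair means was centred on its own mean, and likeness was the root mean square difference between profiles on the log2 scale, with a median of 2.30 over the 474. The 5 closest were AT5G40030 (0.49), AT1G13370 (0.57), AT5G52530 (0.66), AT5G05400 (0.75) and AT4G22190 (0.76), and the same 5 came out of the values as deposited. They were chosen for following AT5G49840, so their higher level in ppi2 follows from the choice and is not tested.

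Their levels are given gene by gene, since signals of different probes do not compare transcript amounts. AT5G40030 had a mean log2 level of 3.05 in ppi2 and -1.12 in WT, and AT1G13370 had 2.03 in ppi2 and -2.17 in WT. AT5G52530 averaged -0.03 in ppi2 and -3.14 in WT, AT5G05400 0.01 and -2.96, and AT4G22190 0.95 and -2.16. Their differences lay between 2.97 and 4.20. These ran from 3.89 to 5.12 without WT pairs 1 and 2 and from 2.05 to 3.61 without WT pairs 3 and 4. In each of the 6 genes, a likeness that the choice favours, ppi2 pair 4 was the lowest of the ppi2 pairs, and WT pairs 3 and 4 were both below WT pairs 1 and 2. AT5G49840 was the 1 gene of the 6 with its highest level in ppi2 pair 3, at 1.30. In that pair AT5G40030 (2.71), AT1G13370 (1.63) and AT5G05400 (-0.07) were below their own ppi2 pairs 1 and 2. AT4G22190 was about level with its ppi2 pair 1 (1.23 in both), and AT5G52530 (0.15) lay between its ppi2 pairs 1 and 2.

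**Figure D5:**
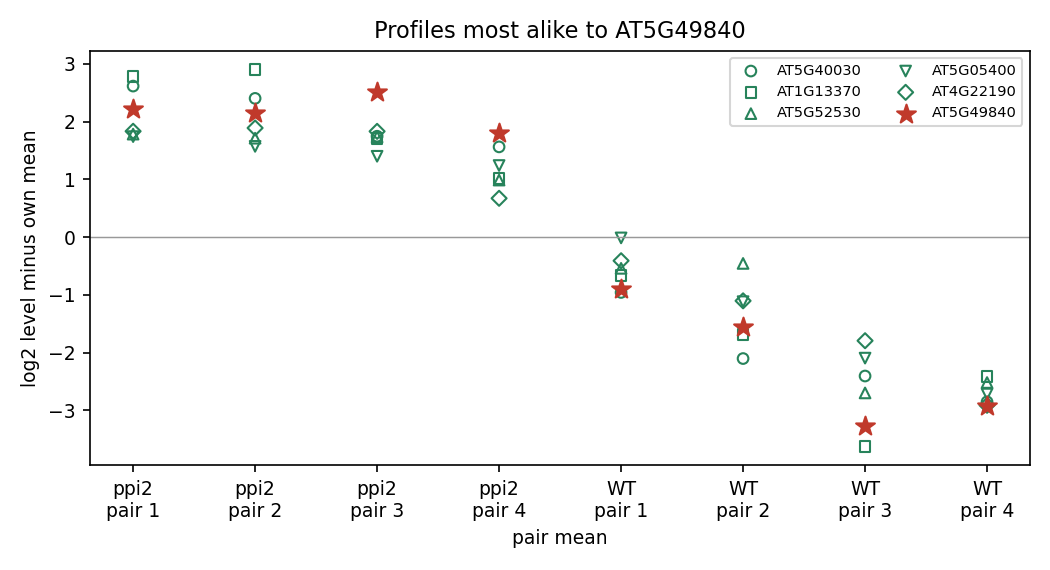
Normalized log2 level of each pair mean minus the gene's own mean over the 8 pairs, for AT5G49840 (red stars) and the 5 genes with the most similar profile (green symbols). In all 6 genes the ppi2 pairs lie above the WT pairs, ppi2 pair 4 is the lowest of ppi2, and WT pairs 3 and 4 are the lowest of WT.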

How the data were processed

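The authors' deposited table held 1 intensity per probe and sample, on a linear scale from 0 to 100. The sources used here do not give the quantification, background correction or scaling of the spots. All 16 columns were mapped by sample. The platform annotation gave 1 gene for 692 probes (691 genes), several for 870 and none for 1877. Probes with several genes were left unnamed. Of the 692, 690 matched the RefSeq table of TAIR10.1, used for names and gene order. The ClpX, CLPS1, CLPF and FTSHI3 assignments of loci are background knowledge. No coordinates are printed, since the sources used here give no build.

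Values were quantile-normalized, floored at the 5th percentile of positive values and log2-transformed. Consecutive samples were averaged because each correlated best with its partner (r of 0.902 to 0.979). limma 3.58.1 in R 4.3.3 (lmFit, eBayes) compared 4 ppi2 with 4 WT pairs over 3439 probes with Benjamini-Hochberg adjustment at 0.05, and was tested on simulated data. The number of arrays limits precision. The gene, the lists and the alternatives were chosen with earlier results of these data known. Named genes were all measured members of the lists, measured neighbours within 10 genes and the 5 most similar profiles. From lists found by words, the 3 brightest members and the largest rise and fall were to be named, which took in all members.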

Additional observations from a re-analysis of the deposited data

Results flagged for a closer look

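In 2 of 28 groups of 4 pairs examined among the named genes, 1 pair stood far from the other 3. Chance flags about 1 in 20 groups, so 2 of 28 is near what chance gives. Both concern ppi2 pair 4 in genes picked for their likeness to AT5G49840, so they are not independent. Pair 4 averages ppi2 7 and 8, whose medians over all probes were the lowest in ppi2. AT5G52530 was at a log2 level of -0.60 in ppi2 pair 4, against 0.13 to 0.20 in the other ppi2 pairs. AT4G22190 was at 0.070 there, against 1.23 to 1.29. AT5G49840 was also lowest in ppi2 pair 4, at 0.61, but not far enough from the others, at 0.94 to 1.30, to be flagged.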

How the results depend on the processing

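AT5G49840 was higher in ppi2 under all 22 alternatives, 2 of which, without a floor, were added after the data were seen. It was chosen for this rise, so the shared direction tests nothing. Leaving out pairs could not reverse it, since every ppi2 pair lay above every WT pair. Regrouping the samples or leaving out dim probes could not move its difference at all. The log2 difference of AT5G49840 moved by more than 0.82, the SD between pairs pooled over both genotypes, in 2 of the 22. These were 5.27 without WT pairs 1 and 2 and 3.40 without WT pairs 3 and 4. Of the 3439 probes 984 were called, and 1616 with every sample counted singly. Without WT pairs 1 and 2 the count was 1452, and with a floor at the 25th percentile it was 819. When 1 pair was left out it ran from 686 to 1087. Of the 8 other listed genes 3 were called, against 5 with every sample counted singly and 6 without WT pairs 1 and 2. It was 2 with a floor at the 25th percentile, and 3 to 5 when 1 pair was left out. Calls over all probes moved too, so these changes are not particular to the listed genes. TPP2 differed by -0.85 without WT pairs 1 and 2 and by -0.21 to 0.54 when 1 pair was left out, and Cpn60beta3 by 0.31 in the deposited values. AT5G49800 differed by 0.85 in the deposited values, -0.13 after cyclic loess, -0.00094 with zeros set to missing, -0.46 without WT pairs 1 and 2 and -0.29 to 0.30 when 1 pair was left out. Their causes were not tested. A replicate block by pair number called 846 probes and changed no call among the listed genes. Pairs of one number deviated together in numbers 1, 2 and 4 (r across probes of 0.36, 0.29 and 0.33) but not in 3 (0.02). Between pairs of different numbers r ran from -0.23 to 0.05. The labels name no pairing and number 3 showed little, so the main fit left the samples unpaired. Whether the numbers mark a shared block was not tested. Signal near the floor limits WT levels of AT5G49840, AT1G68660 and CCS.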
